A study of Mus musculus with 2 samples.

Results

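The nuclear genes of respiratory complex I were examined in testis RNA of balb/c mice at postnatal day 45, in 1 control library and 1 library from mice exposed to bisphenol A (BPA), a weakly estrogenic building block of polycarbonate plastics. Per the labels, 3 samples were mixed before sequencing in each group, so these files hold no spread between mice and no test between the conditions was possible. The control library carries no treatment label, and the sources used here give no dose, route or duration of the BPA exposure. Nor do they say whether the 3 mixed samples were 3 animals. The genes were taken by name: protein-coding genes whose symbol is Nduf followed by a, ab, b, c, s, v or af and a number. This gave 46 of the 44002 rows of the deposited table, 38 named as subunits and 8 as Ndufaf assembly factors. All 46 reached 1 CPM or more in the higher library, the floor used here, as did 19389 genes in all. CPM values are read counts divided by the depth of the library, with no correction for gene length.

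Complex I is the largest enzyme of the respiratory chain. It takes electrons from NADH, passes them through a flavin and a chain of iron-sulfur clusters to ubiquinone, and pumps protons across the inner mitochondrial membrane. Its matrix arm holds the N module, where NADH is oxidised, and the Q module, where ubiquinone is reduced, and its membrane arm holds the proton pumps, whose core subunits are encoded by mitochondrial DNA. Assembly factors build the parts and join them without staying in the finished enzyme. In the testis, Sertoli cells and spermatogonia rely largely on glycolysis, while spermatocytes and spermatids use oxidative phosphorylation, and the sperm midpiece is packed with mitochondria. The 7 mitochondrially encoded subunits matched no row and were not analysed here.

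Complex I transcripts stood at nearly the same level in both libraries. None of the 46 genes was 2-fold apart, against a background of 1.32% of all genes 2-fold higher and 1.95% 2-fold lower in the BPA library (3.28% either way). None was 1.5-fold apart, where the background was 4.27% higher and 5.37% lower (9.64% either way). The log2 ratio was above 0 for 29 of 46, where the background was 50.9%. These calls use the log2 ratio of BPA over control after adding 0.1 CPM to each value. The log2 ratios of the members ran from -0.47 to 0.34. Their median was 0.04 for the 38 subunits and -0.04 for the 8 Ndufaf genes, beside 0.00 for all genes (0.0041 before rounding). Summed over the 38 subunits, the level was 2595 CPM under BPA and 2542 CPM in control, a ratio of 1.02 (95% counting interval 1.013 to 1.03). Intervals here are exact (Clopper-Pearson) and cover counting error only. They hold neither the spread between animals nor copying in the PCR step. The pairs of values below that name no library give BPA first. Depth, read from the smallest step of the values, was 45377693 reads under BPA and 41801885 in control, and the members were represented by 39 to 13594 reads each.

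**Figure D1:**
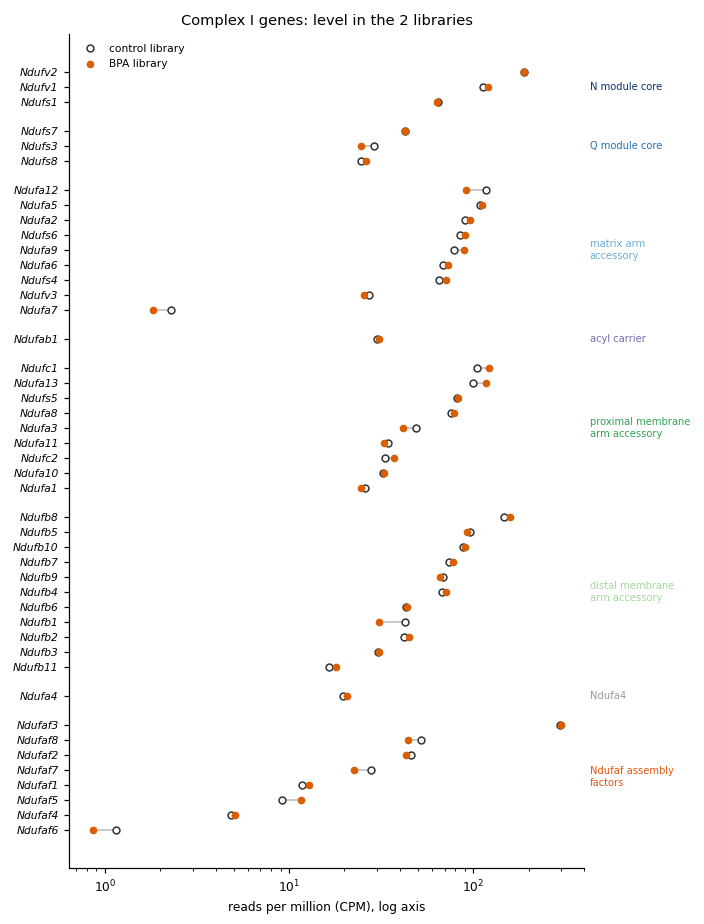
Level of 45 complex I genes in the control library (open circles) and the BPA library (filled circles), in CPM on a log axis, grouped by place in the complex. The circles lie close together for nearly every gene, and the widest gap above 2 CPM is that of Ndufb1, at 30.8 CPM under BPA and 42.8 CPM in control. CPM is not divided by gene length, so positions compare libraries and not genes.

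At this depth small differences can exceed counting error. The interval lay wholly above 1 for 13 of 46 members and wholly below 1 for 7, and it held 1 for the other 26. Over all genes at the floor, 21.8% had an interval above 1 and 21.3% below, so intervals that leave out 1 are common in these libraries. Among the 43 members at 10 CPM or more, 13 and 7 had such intervals, where the background was 25.8% above and 23.8% below. Of these 43, Ndufaf5 was higher under BPA by 25% or more, and in control Ndufb1 and Ndufa12 were higher by 25% or more. The background of these calls was 4.12% higher and 3.35% lower under BPA. This smaller limit was chosen after seeing the data. The median size of the log2 ratio, regardless of sign, was 0.087 for these members and 0.088 for all 10247 genes at that level.

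The core subunits include those that carry the redox centres, and 5 of 7 had an interval that held 1. Of the others, 1 had an interval above 1 and 1 below, beside 21.8% and 21.3% of all genes at the floor. In the N module, Ndufv2, which holds an iron-sulfur cluster beside the flavin, stood at 189.6 CPM under BPA and 189 CPM in control. Ndufv1, the flavoprotein that binds NADH, stood at 121 CPM against 113 CPM, a ratio of 1.07 (1.03 to 1.11), and its interval was the only one of the 3 N module core subunits that left out 1. Ndufs1, the largest subunit with several iron-sulfur clusters, stood at 64.0 CPM in each library. In the Q module, Ndufs7, which carries the last iron-sulfur cluster before ubiquinone, stood at 42.5 CPM against 42.7 CPM. Ndufs8, the subunit with a pair of iron-sulfur clusters, stood at 26.2 CPM against 24.5 CPM. Ndufs3 was the core subunit farthest from an equal level, at 24.7 CPM under BPA and 28.9 CPM in control, 1.17-fold lower (1.08 to 1.27). Summed over all 7 core subunits, the level was 602 CPM against 596 CPM, a ratio of 1.009 (0.992 to 1.03).

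The values of Ndufs3 come with a limit of the locus. Its exons overlap 88 bases of exons of Kbtbd4 on the opposite strand, and Kbtbd4 stood at 2.12 CPM under BPA and 0.383 CPM in control, 5.53-fold higher (3.24 to 10.1, 96 and 16 reads). The library protocol describes no step that marks the strand, so reads from the overlapping part cannot be assigned to 1 of the partners. In addition 16.1% of the 50-base stretches of Ndufs3 transcripts occur in genes at other loci, so its reads are uncertain. Whether either feature bears on the ratio of Ndufs3 was not tested. Shared stretches made up 5% or more in 9 members, with the largest shares in Ndufs5 (21.7%) and Ndufb4 (18.3%).

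Of the 9 accessory subunits of the matrix arm, 5 had an interval above 1, 1 below and 3 across 1. Over all genes at the floor the shares were 21.8% above and 21.3% below. Ndufa12, which sits on the matrix arm where the N module joins, stood at 91.5 CPM under BPA and 118 CPM in control, 1.29-fold lower (1.24 to 1.34), on 4150 and 4924 reads. It shares 17.7% of its 50-base stretches with the processed pseudogene Gm15920, so the source of its reads is uncertain. In the other direction Ndufa9, which stabilises the junction of matrix and membrane arms, stood at 88.6 CPM against 78.8 CPM, 1.12-fold higher (1.07 to 1.18). Ndufs4, known from a mouse model of Leigh syndrome, stood at 70.8 CPM against 65.2 CPM, and Ndufs6, a zinc-binding subunit of the N module, at 90.1 CPM against 84.9 CPM. Ndufa2, Ndufa5, Ndufa6 and Ndufv3 had log2 ratios between -0.09 and 0.10. Ndufa7 had the fewest reads of the group, at 1.83 CPM under BPA and 2.30 CPM in control, 1.26-fold lower with a wide interval (0.926 to 1.71, on 83 and 96 reads). Ndufab1, the mitochondrial acyl carrier protein that is bound in both arms and also serves fatty acid synthesis, stood at 30.6 CPM against 29.9 CPM.

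In the membrane arm next to the matrix arm, 3 of 9 accessory subunits had an interval above 1 and 1 below. The background over all genes at the floor was 21.8% and 21.3%. Ndufa13, also known as GRIM-19 and as a partner of STAT3, stood at 117 CPM under BPA and 99.9 CPM in control, 1.17-fold higher (1.12 to 1.22). Exons of the spermatid kinase gene Tssk6 on the other strand cover 30.0% of its exon bases, and Tssk6 stood at 275 CPM against 287 CPM. Ndufc1 stood at 121 CPM against 105 CPM, 1.16-fold higher (1.11 to 1.21), and Ndufc2 at 37.2 CPM against 33.3 CPM, 1.12-fold higher (1.04 to 1.202). These paired membrane subunits of the ND2 region thus sat on the same side. Ndufa3 lay on the other side, at 41.7 CPM against 48.8 CPM, 1.17-fold lower (1.10 to 1.246). Ndufa1, Ndufa8, Ndufa10, Ndufa11 and Ndufs5 had intervals that held 1. The summed level of the 9 genes was 569 CPM against 537 CPM, a ratio of 1.06 (1.04 to 1.08).

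In the distal membrane arm, Ndufb1 had the lowest ratio of all 46 members. It encodes a small single-span subunit, and it stood at 30.8 CPM under BPA and 42.8 CPM in control, 1.39-fold lower (1.30 to 1.49), on 1399 and 1791 reads. Exons of Cpsf2, which encodes an RNA 3' end processing factor and lies on the opposite strand, cover 12.7% of its exon bases. Cpsf2 itself stood at 50.6 CPM and 50.05 CPM. Ndufb1 is protein-coding in RefSeq, while GENCODE lists a noncoding gene, Ndufb1-ps, at the locus. Of the other 10 genes, Ndufb8, Ndufb7 and Ndufb4 had intervals above 1 and 7 had intervals that held 1. The background over all genes at the floor was 21.8% above 1 and 21.3% below. Ndufb8, a subunit often used as a protein marker of assembled complex I, stood at 158 CPM against 147 CPM. Ndufb11, which lies on the X chromosome, stood at 18.03 CPM against 16.5 CPM. The 11 genes together held 724 CPM under BPA and 716 CPM in control, a ratio of 1.011 (0.995 to 1.03).

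Ndufa4 was first described as a complex I subunit and is now placed in cytochrome c oxidase. It stood at 20.6 CPM under BPA and 19.5 CPM in control, with an interval that held 1 (0.959 to 1.16). Leaving it out moved the median log2 ratio of the subunits by less than 0.01. Its paralog Ndufa4l2, which falls outside the name rule and was singled out after its values were seen, stood at 36.6 CPM against 30.4 CPM, 1.21-fold higher (1.12 to 1.30).

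**Figure D2:**
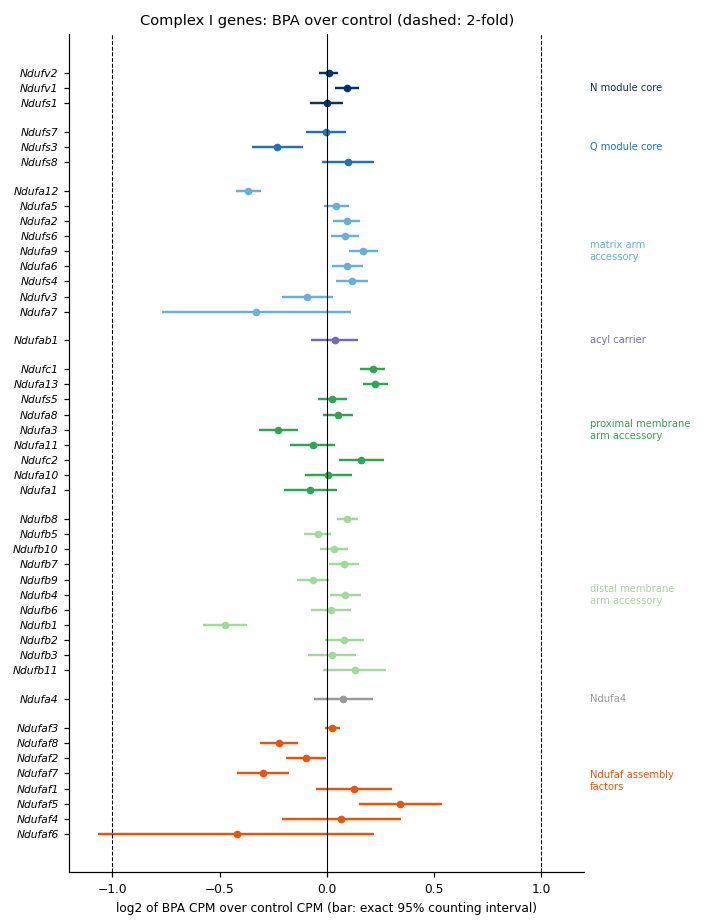
Log2 ratio of BPA over control for 45 complex I genes (points), each with its exact 95% counting interval (bar), grouped by place in the complex. All points lie between the dashed lines at 2-fold. Wholly below 0 lie 7 bars, among them Ndufb1 and Ndufa12, and wholly above lie 13, among them Ndufa13, Ndufc1 and Ndufaf5. The bar of Ndufaf6 reaches past 2-fold on 39 and 48 reads.

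Of the 8 assembly factors, 1 had an interval above 1, 3 below and 4 across 1. The background over all genes at the floor was 21.8% above and 21.3% below. Ndufaf5, which hydroxylates an arginine of Ndufs7, had the highest ratio of all members, at 11.5 CPM under BPA and 9.11 CPM in control, 1.27-fold higher (1.11 to 1.45). Its partner Ndufaf8 stood on the other side, at 44.4 CPM against 51.8 CPM, 1.17-fold lower (1.10 to 1.24). Ndufaf7, a methyltransferase of early assembly, stood at 22.6 CPM against 27.8 CPM, 1.23-fold lower (1.13 to 1.34). The early factors Ndufaf3 and Ndufaf4, which bind the Q module, stood at 299.6 CPM against 294 CPM and at 5.09 CPM against 4.86 CPM. Neither had an interval that left out 1. Ndufaf1, a factor of membrane arm assembly, stood at 12.8 CPM against 11.7 CPM (0.965 to 1.23). Ndufaf2, a paralog of Ndufa12 that holds its place in a late intermediate, stood at 42.9 CPM against 45.9 CPM, 1.07-fold lower (1.004 to 1.14). For Ndufaf2, 65.6% of exon bases overlap a noncoding gene on the other strand that is listed at 0 in both libraries. Ndufaf6 had the fewest reads of all members. It is written as 0 CPM under BPA and 1.15 CPM in control. The fold change in the authors' deposited table gives 0.859 CPM for that 0, or 39 reads against 48, and the interval of its ratio runs from 0.478 to 1.17. Its difference was therefore not detectable at this depth. Summed over the 8 genes, the level was 439.7 CPM against 447 CPM, a ratio of 0.984 (0.965 to 1.004), and Ndufaf3 made up most of it.

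**Figure D3:**
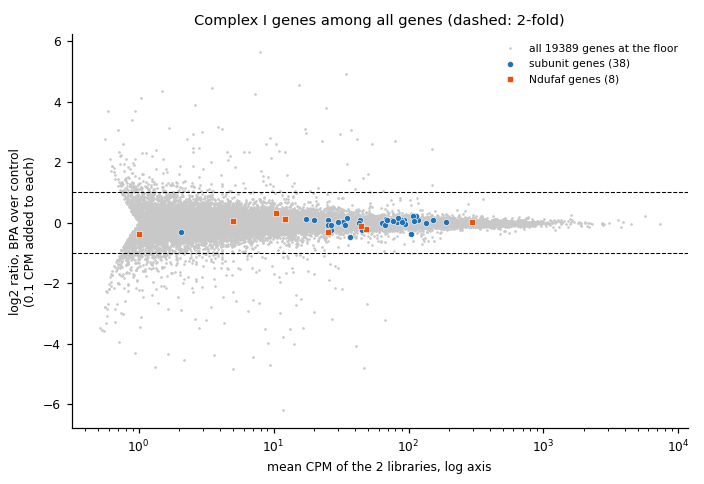
Log2 ratio of BPA over control against the mean CPM of both libraries, for all 19389 genes at the floor (grey), 38 subunit genes (circles) and 8 Ndufaf genes (squares). No member crosses the dashed lines at 2-fold, while the grey cloud widens toward low levels.

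Levels of different members were compared only after division by length, as CPM per kb of exon. Per exon length, Ndufaf3 was highest in the control library at 162 CPM per kb, followed by Ndufa2 at 157, Ndufa5 at 105, Ndufs5 at 94.7 and Ndufs6 at 94.5 CPM per kb. At the low end stood Ndufaf6 at 0.930, Ndufaf4 at 1.24, Ndufa7 at 1.26, Ndufab1 at 4.34 and Ndufaf5 at 5.09 CPM per kb. In the BPA library the highest were Ndufa2 at 167 CPM per kb and Ndufaf3 at 165, and the lowest was Ndufaf6 at 0.696. The median was 24.8 CPM per kb for the 7 core subunits, 42.0 (42.04) for the 30 accessory subunits and 7.86 for the 8 Ndufaf genes, all in the control library. The length used matters. Exons of all annotated transcripts were joined here, and with the longest transcript alone these control medians were 43.4 for the core subunits, 61.1 for the accessory subunits and 9.09 for the Ndufaf genes. With that length Ndufs1 moved from 7.92 to 24.1 CPM per kb and Ndufa7 from 1.26 to 3.59. Over exon bases of no other gene, a length added after seeing the data, Ndufa2 was highest in control at 178 CPM per kb, above Ndufaf3 at 167, and Ndufaf2 stood at 44.9 in place of 15.4. The counting mode is not given, so it is not known whether reads from the overlapping bases are in that value. If they are, it is an upper one for genes with an overlap. The order of all 46 was similar for joined exons and the longest transcript, with a Spearman correlation across genes, which are not independent replicates, of 0.972. The X-linked genes Ndufa1 and Ndufb11 stood at 61.9 and 18.2 CPM per kb in the control library and at 58.7 and 19.9 in the BPA library, inside the range of the other members. The X chromosome is silenced during male meiosis, which makes these genes of interest in testis. The ratio of their summed CPM was 1.005 (0.942 to 1.07).

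**Figure D4:**
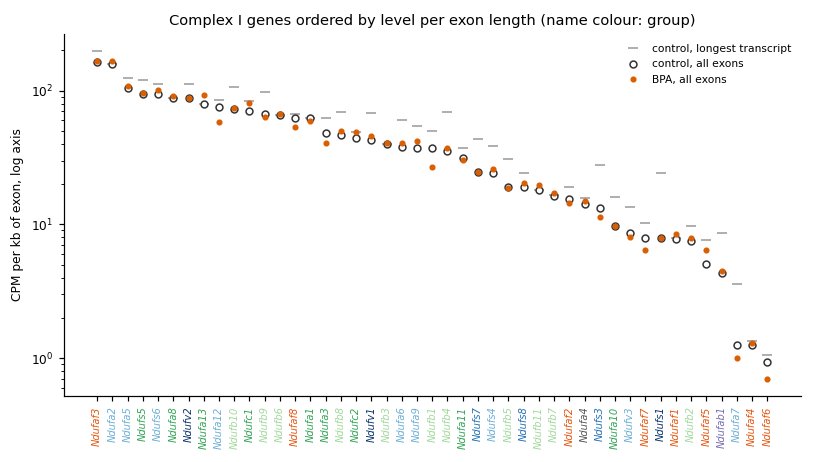
CPM per kb of exon for 45 complex I genes, on a log axis, ordered by the control library (open circles), with the BPA library (filled circles) and the control library over the longest transcript only (dashes). Name colours mark the groups. For joined exons Ndufaf3 stands at the upper end and Ndufaf6 at the lower end, and the libraries follow each other across the whole range.

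Promoter sequences were searched for short motifs that members have in common. RefSeq windows on GRCm38.p6, from 250 bases before to 50 after the start, were at hand for 41 of 46 members (43 windows). The letters AAGATGGC, which the factor YY1 recognises, occurred on either strand in 8 windows (18.6%), against 2.75% of all 32851 windows and 3.72% of windows of genes at the floor. In all 8 they lay downstream of the start, at positions 11 to 39, and in the direction of the gene. Position and direction were not counted over all windows, so this has no background share. What the position reflects was not tested. The stretches are shown because the same 8 letters, in capitals, recur in subunits of different arms and in an assembly factor, each 5′ to 3′ along the gene, with 10 bases before and 4 after.
Ndufa3: cgccaagaacAAGATGGCcggg
Ndufa9: attgtgggagAAGATGGCggcc
Ndufaf8: ggcagggcccAAGATGGCggcg
Ndufb8: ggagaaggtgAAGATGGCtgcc
Ndufc1: cctgcggaacAAGATGGCgccg
Ndufs4: tgcctacaggAAGATGGCggcg
Ndufs6: ggtcaccggcAAGATGGCggcg
Ndufs7: ggccgaggccAAGATGGCggcg
The log2 ratios of these 8 genes ran from -0.23 to 0.21, 5 above 0 and 3 below.

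The letters GCGCATGC, the core of sites of NRF1, a known regulator of respiratory chain genes, occurred on either strand in 5 member windows (11.6%), against 2.71% of all windows and 4.36% of those of genes at the floor. These were those of Ndufa6, Ndufa8, Ndufa11, Ndufaf4 and Ndufaf5, with log2 ratios from -0.07 to 0.34. The match overlaps its own reverse complement in Ndufa11, Ndufaf4 and Ndufaf5. CCGGAAG, recognised by ETS factors such as GABPA, occurred in 6 windows (14.0%), against 8.86% of all windows and 13.9% of those of genes at the floor. TATAAA occurred in 5 windows (11.6%) of 4 members, against 13.6% of all windows and 8.68% of those of genes at the floor. Such matches are letters in a window and not sites. The windows of the genes with the highest and the lowest ratio are shown for comparison, with matches of these 4 motifs in capitals. Ndufaf5 (chr2:140170396-140170695, + strand, GRCm38.p6) holds GCGCATGC near its end and Ndufb1 (chr12:101975689-101975988, - strand, GRCm38.p6) holds none of the 4.
Ndufaf5: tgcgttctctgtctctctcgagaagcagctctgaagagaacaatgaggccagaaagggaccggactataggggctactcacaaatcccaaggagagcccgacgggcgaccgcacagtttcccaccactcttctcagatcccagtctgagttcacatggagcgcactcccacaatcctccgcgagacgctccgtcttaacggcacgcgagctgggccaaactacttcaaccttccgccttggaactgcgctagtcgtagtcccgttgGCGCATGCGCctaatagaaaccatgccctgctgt
Ndufb1: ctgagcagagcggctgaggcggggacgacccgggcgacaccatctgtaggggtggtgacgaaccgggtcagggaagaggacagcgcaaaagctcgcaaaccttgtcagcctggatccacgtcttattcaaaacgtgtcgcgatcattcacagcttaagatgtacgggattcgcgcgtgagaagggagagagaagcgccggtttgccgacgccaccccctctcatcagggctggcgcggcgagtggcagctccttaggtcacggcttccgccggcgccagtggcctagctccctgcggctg

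Other parts of the respiratory chain stood at similar levels. Assembly factors of complex I outside the name rule, 15 of 16 with values, held no gene 2-fold apart. Their median log2 ratio was 0.00 (0.0038), and 1 gene had an interval above 1 and 1 below (background 21.8% and 21.3%). Timmdc1 had the highest ratio, at 8.73 CPM under BPA and 7.51 CPM in control, with an interval that held 1 (0.999 to 1.35). The median was 0.09 for the 4 succinate dehydrogenase genes of complex II, 0.06 for 9 genes of complex III, 0.04 for 15 genes of complex IV and 0.03 for 16 genes of complex V, beside 0.04 for the complex I subunits. Complex II had Sdhb at its upper end, at 93.4 CPM against 81.7 CPM, and complex III had Uqcrc1, at 4.87 CPM against 3.71 CPM, with an interval of the ratio from 1.06 to 1.62. In complex IV, Cox7a2 was farthest from an equal level, at 212 CPM against 185 CPM. Of the 44 genes of complexes II to V at the floor, 1 was 2-fold apart, the ATP synthase gene Atp5a1. It stood at 3.79 CPM under BPA and 25.3 CPM in control, 6.67-fold lower (5.67 to 7.88). The list of mitochondrial content and biogenesis had a median of -0.03 over 14 genes. In it Tfam, named after its values were seen and known as the packaging factor of mitochondrial DNA, stood at 192 CPM against 171 CPM, and Ppargc1a, a coactivator of mitochondrial genes, at 0.639 CPM against 1.10 CPM (0.352 to 0.944 for the ratio).

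**Figure D5:**
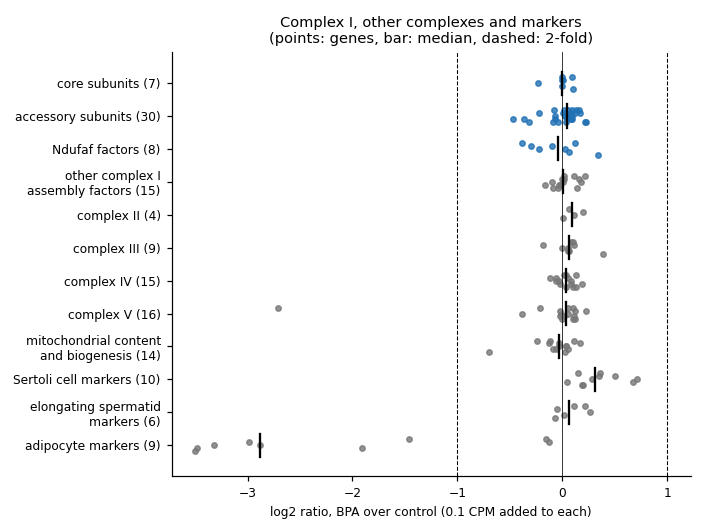
Log2 ratio of BPA over control for each gene at the floor (points) with the median (bar), in complex I groups (blue), other respiratory chain lists and 3 marker lists (grey). Complex I groups lie close to 0 with complexes II to V, Atp5a1 lies apart in complex V, and 7 of 9 adipocyte markers lie below the dashed line at 2-fold lower.

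Markers of germ cells were detected. Some lists of other cells stood apart between the libraries and others did not. The 6 spermatogonia markers had a median log2 ratio of 0.10, with 2 intervals above 1 and 1 below. Spermatocyte, round spermatid and elongating spermatid markers, 6 each, were all at the floor and within 2-fold, with medians of 0.02, -0.01 and 0.06. All 10 Sertoli cell markers lay above 0, with a median of 0.32 and a summed level of 229 CPM under BPA and 189 CPM in control. Of 7 Leydig cell markers, 6 had an interval above 1 and 1 below, and the list summed to 892 CPM against 835 CPM. Its ratios ran from Hsd3b1, 1.28-fold lower (1.23 to 1.33), to Hsd3b6, 1.75-fold higher (1.62 to 1.89), both steroid synthesis enzymes. The 5 peritubular cell markers summed 1.15-fold higher (1.10 to 1.21), but only 2 of them, Acta2 and Myh11, had an interval above 1. Cnn1 and Des had intervals that held 1, and Tagln was listed at 0 in both libraries. Over all genes at the floor, 21.8% had an interval above 1 and 21.3% below. Of 9 adipocyte markers 7 were 2-fold or more lower, and the list summed to 27.4 CPM against 88.9 CPM. The others were much nearer to an equal level. Adipoq stood at 15.4 CPM against 17.2 CPM, 1.12-fold lower (1.005 to 1.24). Plin1 stood at 4.47 CPM against 4.88 CPM, with an interval that held 1. Of 6 skeletal muscle markers, 5 were listed at 0 in both libraries. Of the 5 brown adipocyte markers, Ucp1, the defining gene of brown fat, and Elovl3 were listed at 0 in both. Cidea of that list, a lipid droplet gene, stood at 5.58 CPM against 3.64 CPM, 1.53-fold higher (1.249 to 1.89). Cox7a1, the only other gene of the list at the floor, stood at 2.20 CPM against 2.08 CPM, with an interval that held 1 (0.786 to 1.43). The list summed 1.36-fold higher (1.15 to 1.61), a sum that rests largely on Cidea. In bulk tissue, fewer cells of a type and less RNA per cell cannot be told apart. The part of these cells in the small complex I ratios was not tested.

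Genes near the members were also read. Of 46 members, 21 had at least 1 gene 2-fold apart within 1 Mb, where the background over all genes was 39.3%. These neighbours are named after their values were seen, since no member was itself 1.5-fold apart. Ndufa7 (gene ID 66416, chromosome 17 from 33824572 to 33838316 on GRCm38) had the most, 8 of 49 neighbours. Among these Brd2 stood at 67.0 CPM under BPA and 7.85 CPM in control, Wdr46 at 5.93 CPM against 18.9 CPM, and Rps18 at 1.61 CPM against 8.32 CPM. Ndufa7 itself was not detectably apart at its depth. Ndufv1 and Ndufs8, both on chromosome 19, had Gstp1 and Pitpnm1 as 2-fold neighbours. Their own ratios were both 1.07, with an interval of 1.03 to 1.11 for Ndufv1 and one that held 1 for Ndufs8 (0.985 to 1.17). Ndufb1 (102631912, chromosome 12 from 101968096 to 101975738) had 1 such gene and Ndufa12 (66414, chromosome 10 from 94199035 to 94221440) had none. Ndufaf5 (69487, chromosome 2 from 140170584 to 140218965) had none either.

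In the authors' deposited table no member was called, against 0.0956% of all genes with a p-value. The lowest p-value of a member there was that of Ndufa12, 0.0711, and every member had a q-value of 0.99996. No source used here names the program behind these p-values. An exact binomial test of the reads with Benjamini-Hochberg adjustment over all genes, which compares the libraries and not the conditions, gave 11 members higher and 6 lower at an adjusted p under 0.05, where the background was 17.3% and 17.4%.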

How the data were processed

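RNA-seq values of 2 testis libraries were analysed, each mixed from 3 samples per the labels. HISAT2 2.0.4, HTSeq 0.6.1 and build mm10 are named per the submitters' processing notes. No source used here gives the annotation, strand setting, counting mode or scaling method. The authors deposited CPM values under read count headings, and values under 1 CPM are written as 0. Deposited log2 fold changes equal the log2 ratio of both CPM columns within 4.98e-05. Deposited p-values and q-values are those of the authors.

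All listed CPM values are whole multiples of 1 step per library, 0.0220 CPM (BPA) and 0.0239 CPM (control), taken as 1 read. Values written as 0 were filled from the deposited log2 fold change where the other library was listed (1404 values, 1 of a member, all within 0.00156 read of a whole read). Genes reaching 1 CPM in either library were compared by log2 ratio with a pseudocount of 0.1 CPM and a 2-fold rule. No count model was fitted, since each group has 1 library.

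Symbols and positions came from RefSeq (GRCm38.p6, the build that mm10 names; 40269 of 44002 rows matched). Exon length, exon overlap and shared 50-base words came from GENCODE M21. Alternatives covered scaling, floor, pseudocount, fold, listed zeros, length and window. The members and lists were chosen with earlier results of these data known. Members printed with values are the core subunits (1 is not reported here by name and is left out of 3 figures, but stays in all counts and sums), all Ndufaf genes, the 5 largest log2 ratios per direction and the 5 highest and lowest per kb. Ndufs4, Ndufa3, Ndufa4, Ndufb8, Ndufb11 and Ndufa1 were added after their values were seen. On simulated Poisson reads for 19389 genes, the interval left out 1 for 94% of 50 genes changed 1.5-fold. It did so for 70.8% of 48 genes changed 1.25-fold, and for 4.22% of unchanged genes. Such reads hold counting error only. Python 3.11.15, scipy 1.17.1 and pandas 2.3.3 were used.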

Additional observations from a re-analysis of the deposited data

How the results depend on the processing

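No paired analysis was possible because each group has 1 library. With TMM or median-of-ratios scaling, a floor of 4 CPM or none, a pseudocount of 1 CPM, a 1.5-fold limit and 2-fold at the nearer interval bound, 0 members were higher and 0 lower. Exceptions came from other settings. With listed zeros as 0, 1 member was lower, Ndufaf6, whose log2 ratio then was -3.64, because its BPA value is written as 0. With a floor of 10 CPM and a limit of 25% over the other library, chosen after seeing the data, 1 was higher and 2 were lower. The ratio of summed subunits was 1.04 over the 13 subunit genes with no exon overlap and no shared words, against 1.02 over all 38; the cause was not tested. Within 0.2 Mb, 9 members (19.6%, beside 13.7% of all genes) had a gene 2-fold apart, against 21 within 1 Mb, as the smaller window holds fewer genes. The median of the Ndufaf genes was 0.02 with a floor of 4 CPM, which leaves out Ndufaf6, and so turned sign against -0.04. The subunit mean was 0.01. Scaling moved all ratios by at most 0.0042 (log2). Depth limits Ndufaf6, Ndufa7 and Ndufaf4, and with 1 library per group no ratio has a replicate check.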
